A study of Bos taurus with 12 samples.

Results

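CDH5, PECAM1, ERG and PLVAP are genes that mark endothelial cells, the cells that line blood vessels. Their expression was measured in the gland that forms in the ovary after ovulation and secretes progesterone, the corpus luteum. The genes were found by name among the probes of a bovine 1-colour array: each had 1 probe, so they account for 4 of the 15208 probes that were no controls, and for 4 of the 6796 gene symbols that could be given. All 4 probes passed the filter on dim probes, which kept 12605 probes.

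The glands came from Japanese-Black cows, for which the labels name no treatment, and were collected 10 to 30 min after exsanguination. Cows on day 15 of the estrous cycle form the group NP15, cows on day 15 of gestation the group P15, and cows on day 18 of gestation the group P18, with insemination counted as day 1. Each group had 4 animals with 1 array each. The ages of the cows are not given in the sources used here. A value is the log2 of a probe's processed signal relative to the 75th percentile of its array, so 0 is the level of that percentile and -3 is a signal 3 log2 units below it. Whole tissue was measured, so that fewer endothelial cells and less RNA per endothelial cell cannot be told apart.

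The luteal vessel bed is among the densest in the body, and endothelial cells make up a large share of the gland's cells. CDH5, or VE-cadherin, is the adhesion protein that joins endothelial cells at adherens junctions and is tied to the cytoskeleton through catenins. PECAM1, or CD31, is an immunoglobulin-family adhesion protein at the same cell borders, where leukocytes also use it to cross the vessel wall. ERG is an ETS-family transcription factor that maintains endothelial identity and activates junction genes, CDH5 among them. PLVAP forms the thin diaphragms that span fenestrae and the necks of caveolae in permeable endothelium.

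The probes are shown because each gene rests on 1 of them. They are printed in the order of letters in the scanner files, and capitals mark the longest run that a probe shares, on the same or the opposite strand, with any other probe of the array.
CDH5, probe ABR776: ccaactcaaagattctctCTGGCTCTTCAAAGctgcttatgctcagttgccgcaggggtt
PECAM1, probe ABR1086: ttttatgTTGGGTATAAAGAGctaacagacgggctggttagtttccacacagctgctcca
ERG, probe A_73_115261: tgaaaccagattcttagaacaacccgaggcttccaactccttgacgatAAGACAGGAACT
PLVAP, probe ABR5832: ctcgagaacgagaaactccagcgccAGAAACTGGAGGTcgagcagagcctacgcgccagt
The shared runs were 14, 14, 12 and 13 of 60 bases, so no other probe on the array was a near copy of any of them. The probes were 50%, 45%, 45% and 60% G and C, where the median of the array was 43.3% and the PLVAP probe lay above the 95th percentile of 55%. The ERG and PLVAP probes were designed on expressed sequence tags, and ERG is named only in a description that calls the transcript similar to the human gene. No genome position is given for the probes in the files, and they were not aligned to transcripts here.

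On NP15 arrays the 75th percentile of the signal lay between 2868 and 4183, on P15 arrays between 2649 and 3773, and on P18 arrays between 3000 and 3558; the number of arrays limits the precision. P18 arrays had a smaller share of probes well above background (67.5% to 72.6%) than NP15 arrays (79.6% to 85.6%) and P15 arrays (75.3% to 80.5%). Their negative controls gave a net signal of 78.8 to 92.2, against 34.7 to 38.5 for NP15 and 32.1 to 36.4 for P15. NP15 and P15 shared slide 1 and scan 1 in different slide rows, and P18 lay alone on slide 2 and scan 2. Batch and group therefore cannot be told apart wherever P18 is compared; day and pregnancy cannot be in P18 against NP15, nor slide row and group in P15 against NP15. NP15 replicate 4 stood apart: 4.08% of its kept probes were more than 2 log2 units away from its group's 3 remaining arrays on average, where no other array exceeded 1.29%. Results are also given without it.

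CDH5, PECAM1 and ERG were lower on day 18 of gestation than in both day 15 groups, by 2.09- to 2.99-fold, and on every P18 array they lay below every other array. None of them differed detectably between the pregnant and the cyclic cows of day 15. PLVAP ran the other way: it was 3.89-fold higher in P18 than in P15, near the background of the arrays, and its difference from NP15 did not pass the threshold. In both P18 comparisons its difference thus had the opposite sign to those of the other 3 genes.

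Those counts stand beside the counts over the array. Of all kept probes, 29.9% were called in P18 against NP15, 18.7% lower, as CDH5, PECAM1 and ERG were, and 11.2% higher. Against P15 the shares were 29% called, 15.6% lower and 13.5% higher. Between P15 and NP15, 0.976% were called, and by limma 0 of the 4 genes (0 also at an unadjusted p under 0.05). The P18 arrays lay all below the NP15 arrays for 18.5% of kept probes and all above them for 12.3%, and all below the P15 arrays for 18.4% and all above them for 16.7%. A call or a lack of overlap was therefore common with P18. Both P18 comparisons use the same P18 arrays and are not separate evidence.

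**Figure D1:**
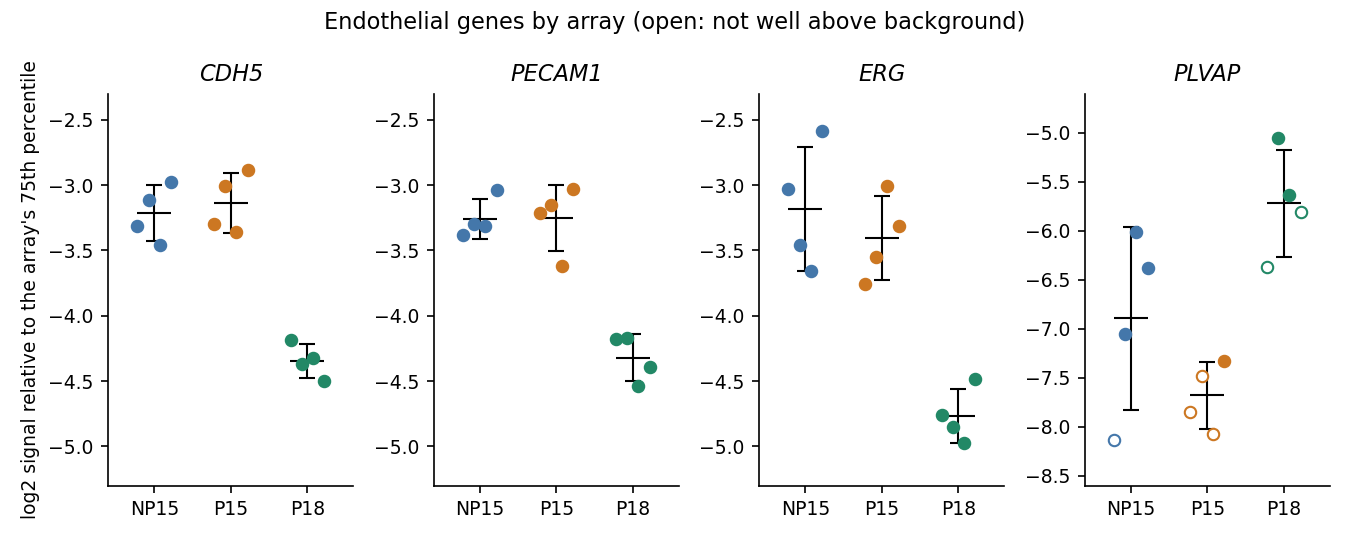
Log2 signal relative to the array's 75th percentile for each gene on each of the 12 arrays, by group; points are arrays, open points were not well above background, and the black marks are the group mean and SD. The P18 points of CDH5, PECAM1 and ERG lie below all others, and those of PLVAP, on an axis of another range, lie above all P15 points.

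In the pregnant and cyclic glands of day 15, CDH5 was at -3.31, -3.11, -3.46 and -2.98 on NP15 replicates 1 to 4 and at -3.30, -3.01, -3.36 and -2.89 on P15 replicates 1 to 4. On P18 replicates 1 to 4 the VE-cadherin probe was at -4.18, -4.37, -4.33 and -4.50. The day 15 groups overlapped almost fully, and the P18 values formed a tight group below them. The NP15 mean was -3.22 ± 0.21 (SD, n = 4), the P15 mean -3.14 ± 0.23 and the P18 mean -4.34 ± 0.13. CDH5 fell by 1.13 log2 units from NP15 to P18 (SE 0.14, limma adjusted p = 0.000254), which is 2.19-fold. P18 was 2.31-fold below P15 (log2 difference -1.21, SE 0.14, limma adjusted p = 0.000185). As a processed signal, NP15 spanned 305 to 483, P15 269 to 470 and P18 142 to 195, well above background on all 12 arrays. Between P15 and NP15 the difference was 0.08 (SE 0.14, limma adjusted p = 0.900), with a 95% interval from -0.24 to 0.39.

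PECAM1 was at -3.38, -3.30, -3.32 and -3.03 in NP15, at -3.21, -3.15, -3.62 and -3.03 in P15 and at -4.18, -4.17, -4.54 and -4.39 in P18, in the order of the replicates. Here too the day 15 groups covered the same range, with P15 replicate 3 the lowest of their 8 arrays, and all P18 arrays lay lower. The means were -3.26 ± 0.15 (SD, n = 4), -3.25 ± 0.25 and -4.32 ± 0.18. The PECAM1 probe was 2.09-fold lower in P18 than in NP15 (log2 difference -1.06, SE 0.15, limma adjusted p = 0.000395). It was lower than in P15 by the same factor (-1.06, SE 0.15, limma adjusted p = 0.000399). The difference between P15 and NP15 was 0.00 (SE 0.15, limma adjusted p = 0.997; 95% interval -0.32 to 0.32).

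ERG, the transcription factor, was at -3.03, -3.46, -3.66 and -2.59 in NP15, at -3.76, -3.55, -3.00 and -3.32 in P15 and at -4.76, -4.85, -4.97 and -4.48 in P18. It varied more among the cows of day 15 than the adhesion genes did, with an SD of 0.48 around -3.18 in NP15 and of 0.32 around -3.41 in P15, against 0.21 around -4.77 in P18 (n = 4 each). Its highest NP15 value was that of replicate 4, the array that stood apart. ERG was 2.99-fold lower in P18 than in NP15 (log2 difference -1.58, SE 0.24, limma adjusted p = 0.000627) and 2.57-fold lower than in P15 (-1.36, SE 0.24, limma adjusted p = 0.00159). The P15 minus NP15 difference of -0.22 had a 95% interval from -0.74 to 0.30 (SE 0.24, limma adjusted p = 0.845).

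Without NP15 replicate 4 the P18 minus NP15 differences were -1.05 for CDH5, -0.99 for PECAM1 and -1.38 for ERG, with limma adjusted p from 0.000524 to 0.000857. The difference of ERG between P15 and NP15 was then -0.02. In both P18 comparisons these 3 genes stayed past the threshold under all 25 alternatives tried. The normexp alternative corrected the unprocessed signals for background, added an offset of 50 and then applied quantile normalization. It gave smaller values, at -0.69, -0.62 and -1.05 against NP15 and -0.77, -0.64 and -0.86 against P15. Quantile normalization of the processed signals alone gave -0.90, -0.82 and -1.38 against NP15.

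PLVAP was dim. Its processed signal was 12.3, 31.6, 52.1 and 34.5 on NP15 replicates 1 to 4, 11.5, 21.1, 13.7 and 20.4 on those of P15 and 42.8, 107, 60.3 and 57.0 on those of P18. Signal well above background was found on 3 NP15 arrays, 1 P15 array and 2 P18 arrays, and the lowest signal so classed on any one array was 14.2 to 17.7 for NP15, 17.3 to 35.3 for P15 and 52.4 to 78.1 for P18. The P18 signals lay above all P15 signals, and 3 of the 4 lay above all NP15 signals, on the arrays whose own background was the highest; the part of that background in the result was not tested.

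On the log2 scale PLVAP was at -8.14, -7.05, -6.01 and -6.38 in NP15, at -7.85, -7.48, -8.07 and -7.33 in P15 and at -6.37, -5.05, -5.64 and -5.81 in P18. All P18 arrays lay above all P15 arrays, and 3 of the 4 lay above all NP15 arrays. Group means were -6.89 ± 0.93 (SD, n = 4), -7.68 ± 0.34 and -5.72 ± 0.54. P18 was 3.89-fold above P15 (log2 difference 1.96, SE 0.42, limma adjusted p = 0.00545). Since 3 P15 arrays and 2 P18 arrays were not well above background, the size of this rise is not exact; with normexp it was 0.62 (limma adjusted p = 0.0158).

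Against NP15 the PLVAP difference was 1.18 (SE 0.42, limma adjusted p = 0.0562; 95% interval 0.25 to 2.10), short of the threshold. It passed in 7 of the 24 alternatives that gave it a value, among them without NP15 replicate 3 (1.47, adjusted p = 0.0257), without NP15 replicate 4 (1.35, 0.0451) and without P18 replicate 1 (1.39, 0.0413). The P15 minus NP15 difference was -0.79 (SE 0.42, limma adjusted p = 0.664) with a 95% interval from -1.71 to 0.14.

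**Figure D2:**
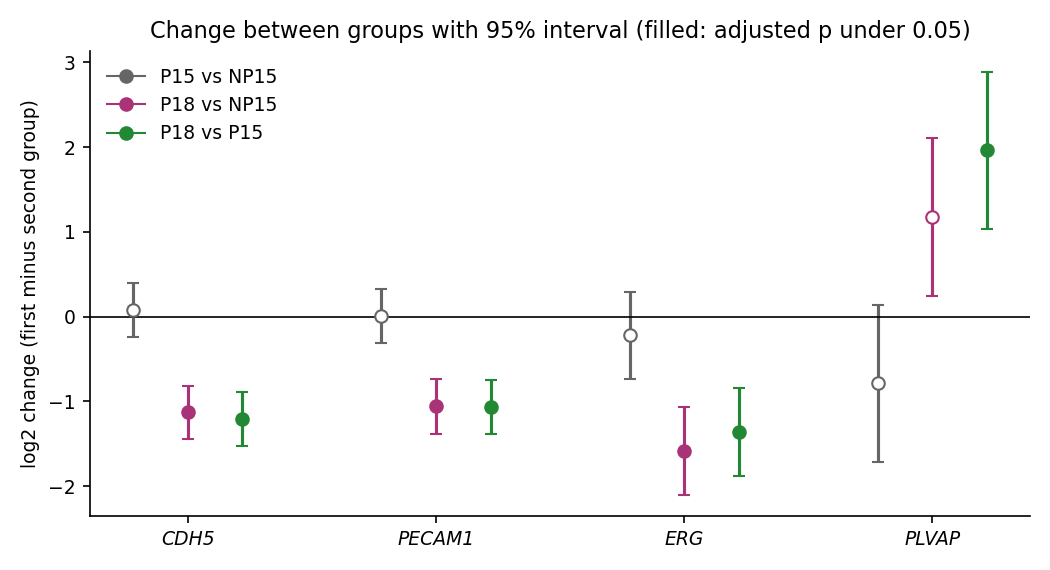
Log2 change of each gene in the 3 comparisons, first minus second group, with the 95% interval; filled points have a limma adjusted p under 0.05 and open points do not. CDH5, PECAM1 and ERG lie near 0 between the day 15 groups and between -1.06 and -1.58 in both P18 comparisons, and PLVAP lies at 1.18 and 1.96 in the latter.

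The sizes were also set beside those of probes of like level. The kept probes with an NP15 mean between -4 and -3, where CDH5, PECAM1 and ERG lie, numbered 1195. Their median change was -0.26 in P18 against NP15 and -0.24 against P15, 28.2% and 25.3% of them were called lower, and 13.6% and 10.5% had a log2 change of -1 or below, as CDH5, PECAM1 and ERG each had. Among the 971 probes between -7 and -6, where PLVAP lies, 11.6% had a change of 1 or more against NP15 and 16.6% against P15, with medians of -0.12 and 0.00. In the next dimmer band, from -8 to -7, which ends just below the PLVAP mean of -6.89, the shares were 27.1% and 32.2% of 738 probes. A rise of 1 log2 unit or more was thus common among dim probes, at 11.6% to 32.2% in these bands. PLVAP differed by 1.18 from NP15 and by 1.96 from P15, and the share of probes that rose by as much was not counted.

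**Figure D3:**
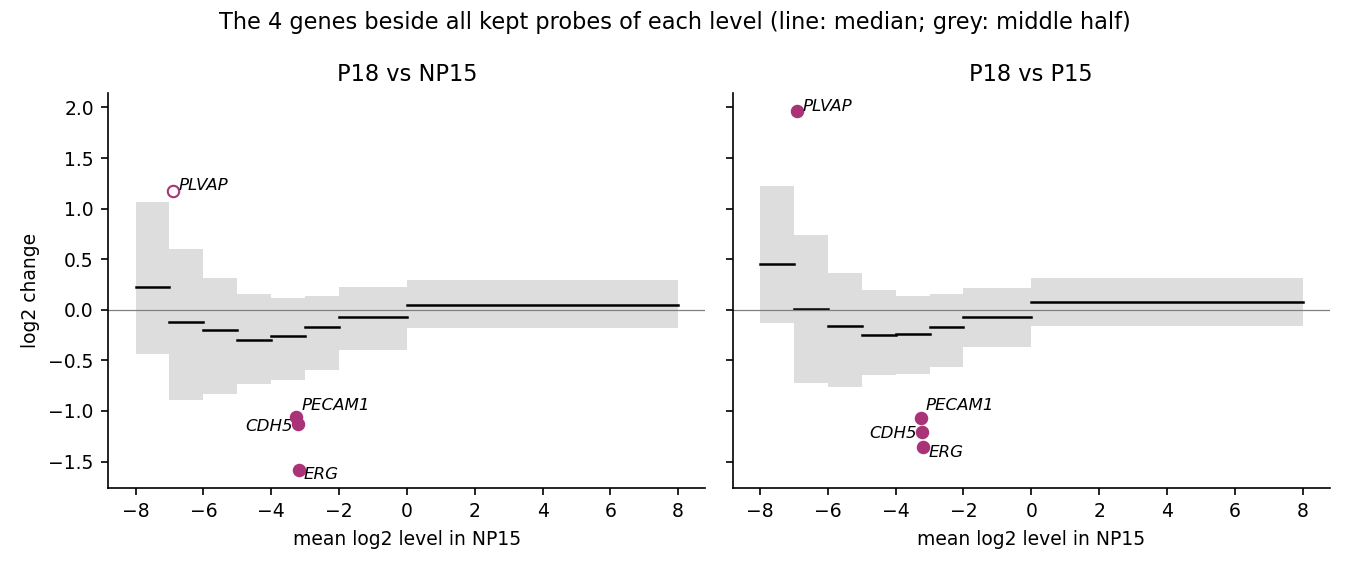
Log2 change in P18 against NP15 (left) and against P15 (right) for the 4 genes, placed at their mean log2 level in NP15; black lines are the median and grey areas the quartile range of all kept probes in each band of level, and filled points have a limma adjusted p under 0.05. CDH5, PECAM1 and ERG lie below the grey area of their band and PLVAP above it.

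Place on the array was compared as well, because the calls between P15 and NP15 ended when the outer rows were left out. The probes lie in rows 37 (CDH5), 99 (PECAM1), 49 (ERG) and 106 (PLVAP) of 192. The median change of all kept probes in the same row and the 2 rows on each side was between -0.13 and 0.11 in the 3 comparisons. The part of position in the changes of the 4 genes was not tested.

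Whether the genes differed from one another was tested on the within-array differences of each pair, in 18 exact two-sided permutation tests over the 70 splits of 8 arrays, whose smallest possible p is 0.0286. Relative to PLVAP, each of CDH5, PECAM1 and ERG changed by -2.24 to -3.32 log2 units in the P18 comparisons, with no overlap of the within-array differences. These sizes are not exact, since PLVAP was not well above background on 3 P15 and 2 P18 arrays. The 6 pairs reached that smallest p, for an adjusted p of 0.0857. With 18 tests an adjusted p can pass only when most pairs reach the smallest p, so the count of 0 of 18 reflects the size of the design. Relative to PECAM1, CDH5 changed by -0.07 between NP15 and P18 (exact permutation p = 0.514), with the P18 arrays between -0.20 and 0.21 and the NP15 arrays between -0.14 and 0.19. ERG had the larger drop from NP15, by 0.45 against CDH5 (exact permutation p = 0.114) and 0.52 against PECAM1 (0.0857), neither past the threshold.

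Cow-to-cow variation is given as a description. Over the 12 arrays, after the mean of each group was taken out, the deviations of CDH5 and PECAM1 correlated at r = 0.70, and the other 5 pairs lay between -0.22 and 0.39. Within the groups the order was another: on the 4 P15 arrays CDH5 and PLVAP were at 0.99, PECAM1 and PLVAP at 0.91 and CDH5 and PECAM1 at 0.83, and on the 4 P18 arrays CDH5 and PECAM1 were at 0.37. PLVAP was well above background on only 1 of those P15 arrays, besides 3 NP15 and 2 P18 arrays. Its r values, here and below, thus rest in large part on signal near background. As a description over 12 arrays that share their scaling, the probes closest to CDH5 among 5149 with a symbol were those of ENTPD1, an ectonucleotidase that breaks down ATP on endothelium and other cells (r = 0.86), MAPK14 (0.85) and MFAP5 (0.84). For PECAM1 they were NTF3 (0.93), EIF1AX (0.92) and PTTG1 (0.84), for ERG SOS2 (0.92), MBD4 (0.90) and FAM216A (0.89), and for PLVAP GOLGA2 (0.85), GOLGA4 (0.84) and TMEM129 (0.83). These are the highest of at least 5149 r values each, and what unrelated probes would reach was not computed. Of the 3 closest to CDH5, ENTPD1 differed by -0.61 between P18 and NP15 and by -0.89 between P18 and P15. MFAP5 differed by -1.46 and -0.68, and MAPK14 by 0.31 and 0.21, the opposite sign to CDH5. Of those closest to PECAM1, NTF3 differed by 0.55 and 0.16 and EIF1AX by 0.27 and 0.27, the opposite sign to PECAM1, and PTTG1 by -0.14 and -0.24.

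Other endothelial genes were listed by role, 115 besides these 4, of which 70 had a kept probe. In P18 against NP15, 15 of the 70 were called lower and 2 higher (24.3% called, against 29.9% of all kept probes), with a median change of -0.28 beside -0.06 over all kept probes. In P18 against P15, 15 were lower and 1 higher (22.9% called, against 29%), with a median of -0.34 beside -0.03. Between P15 and NP15, 0 of the 70 were called by limma (median 0.06), with 3 at an unadjusted p under 0.05. Many genes of these lists are also expressed by other cells of the gland.

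**Figure D4:**
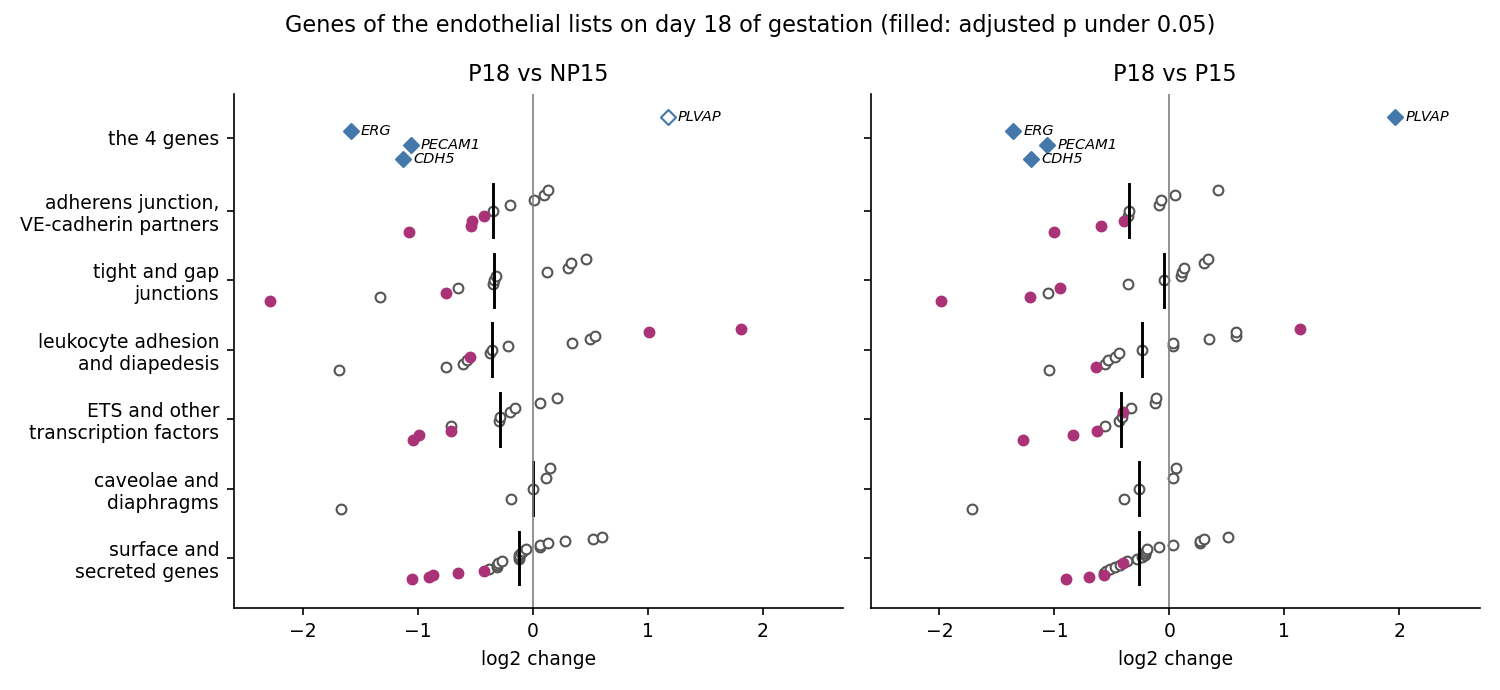
Log2 change of the genes of 6 endothelial lists and of the 4 genes in P18 against NP15 (left) and P18 against P15 (right); circles are genes, diamonds are CDH5, PECAM1, ERG and PLVAP, filled symbols have a limma adjusted p under 0.05, and black bars are list medians. Called genes lie mostly to the left of 0, with ACKR1 on the right in the leukocyte adhesion list.

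Among 9 measured genes of adherens junctions and partners of VE-cadherin, 4 were called lower in P18 than in NP15 and 3 lower than in P15. None was called higher. Of all kept probes, 18.7% and 15.6% were called lower and 11.2% and 13.5% higher in these comparisons. The counts of this list and of the lists below are to be read beside those shares. CTNNB1, or beta-catenin, which binds the tail of VE-cadherin and also carries Wnt signals, was 2.11-fold lower than in NP15 (log2 difference -1.08, SE 0.11, limma adjusted p = 8.09e-05) and lower by 1.00 than in P15 (limma adjusted p = 0.000142). Its NP15 mean was -0.36 ± 0.06 (SD, n = 4), its P15 mean -0.44 ± 0.15 and its P18 mean -1.44 ± 0.16, and P18 overlapped neither. KRIT1, a junction protein that binds the small GTPase RAP1, was at -0.53 (limma adjusted p = 0.0039) and -0.60 (0.00217). RAP1A (-0.53, 0.0329) and RAP1B (-0.42, 0.0431) were called against NP15 only at the edge of the threshold and were lost in 8 and 14 of 25 alternatives. JUP, or plakoglobin, was called against P15 (-0.40, 0.0426) and lost in 14. The other cadherin of endothelium, CDH2, had a difference of 0.13 from NP15 (adjusted p = 0.723), and the phosphatase PTPRB, which acts on VE-cadherin, one of 0.10 (0.723).

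Of 11 measured tight and gap junction genes, 2 were lower than in NP15 and 3 lower than in P15. The claudin CLDN12 was at -0.75 (SE 0.15, limma adjusted p = 0.00341) against NP15 and -0.95 (0.000928) against P15. F11R, the junctional adhesion molecule A, was lower than in P15 (-1.21, limma adjusted p = 0.00992), with a difference of -0.65 from NP15 (0.120). TJP1, a scaffold under tight junctions, was at 0.30 in both comparisons (adjusted p = 0.0512 and 0.0541), and the endothelial adhesion molecule ESAM at -0.32 (0.217) and -0.36 (0.160).

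In the leukocyte adhesion list of 13 measured genes, 2 were higher and 1 lower than in NP15. ACKR1, a chemokine-binding receptor of venules and red cells, was higher by 1.81 (SE 0.23, limma adjusted p = 0.000254), on a probe in row 6 that was well above background on 3 NP15 and 2 P18 arrays, and normexp gave 0.45. Against P15 it was higher by 1.14 (limma adjusted p = 0.00386). CD34, a sialomucin of endothelium, was lower than in NP15 (-0.54, limma adjusted p = 0.0338) and in P15 (-0.64, 0.0161), and the former call was lost in 8 of 25 alternatives and the latter with median centring (adjusted p = 0.0708). The selectin genes of endothelium had differences from NP15 of -1.68 for SELE (adjusted p = 0.106) and -0.21 for SELP (0.641), and ICAM1 was at -0.60 (0.0566). SELE was well above background on 0 of 4 P18 arrays, so the size of its difference is not exact.

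The transcription factors beside ERG included 3 of 10 measured genes that were lower than in NP15 and 4 lower than in P15. ETV6, an ETS-family repressor, was at -1.04 (SE 0.19, limma adjusted p = 0.00231) and -0.63 (0.0303), the latter lost in 8 of 25 alternatives. The Notch target HEY2 was at -0.99 (0.00377) and -1.27 (0.000941), on a probe well above background on 2 P18 arrays. EPAS1, the hypoxia-inducible factor HIF-2 alpha, was at -0.71 (0.0110) and -0.84 (0.00477). SOX18, a factor of vessel growth, was called against P15 (-0.41, 0.0350) and lost in 7 alternatives. The ETS factors FLI1, the closest relative of ERG, and ETS2 had differences from NP15 of -0.19 (adjusted p = 0.510) and -0.28 (0.458).

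Of the 5 measured genes of caveolae, structures whose necks carry PLVAP diaphragms, 0 were called in any comparison by limma, and 0 had an unadjusted p under 0.05. CAV1, the main coat protein of caveolae, differed by 0.11 between P18 and NP15 (SE 0.13, limma adjusted p = 0.542), and CAVIN1, a coat adaptor, by -1.66 (SE 0.82, adjusted p = 0.150), with 1 P18 array at -8.38 and the others up to -3.67.

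Of 22 measured surface and secreted genes, 5 were called lower than in NP15, 4 were called lower than in P15, and none was called higher. S1PR1, the sphingosine phosphate receptor that tightens junctions, was at -0.65 (SE 0.11, limma adjusted p = 0.00121), ANGPT2, the angiopoietin that loosens vessels, at -0.91 (0.00552) and VWF, the clotting glycoprotein stored in endothelial cells, at -0.87 (0.00900) against NP15. Against P15 they were at -0.40 (0.0169), -0.90 (0.00591) and -0.70 (0.0256). Normexp gave smaller differences from P15, of -0.18 for S1PR1, -0.44 for ANGPT2 and -0.28 for VWF, and from NP15, of -0.34, -0.46 and -0.40. The S1PR1 call against P15 was lost with quantile normalization, median centring and normexp (adjusted p up to 0.313). ROBO4 (-0.42, 0.0431) and the endothelin receptor EDNRB (adjusted p = 0.0362, with 0 of 4 P18 arrays well above background) were called lower than in NP15. These calls were lost in 14 of 25 and 7 of 24 alternatives. With each P18 array counted at its dimmest probe well above background, EDNRB would lie above its NP15 mean of -7.07 (bound of 0.42 on the fold decrease). The EDNRB call, counted among the 5, thus does not establish a decrease. TM4SF1 was lower than in P15 (-0.57, 0.0246), lost in 5. Among receptors of vascular growth factors and angiopoietins, KDR was at 0.06 (adjusted p = 0.808), TEK at -0.12 (0.378) and TIE1 at -0.31 (0.418) against NP15. The probes of FLT1, the other VEGF receptor in the list, disagreed: the brighter one, which stands for the gene, was at 0.13 (adjusted p = 0.787), and the other, well above background on 2 P18 arrays, was at -1.23 (0.00519). KDR lay between 0.33 and 0.67 on the P18 arrays and between 0.10 and 0.60 on the NP15 arrays, which overlapped. JUP, RAP1B, CAV1, CAVIN1, KDR, TEK, TIE1, FLT1 and the other genes given without a call were chosen after their values were seen.

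Several of these list calls were lost when 1 array was left out; the adjusted p in brackets is the highest over all alternatives. Against NP15 these were RAP1A without NP15 replicate 1 or 4 or P18 replicate 1, 2 or 3 (0.141), CD34 without NP15 replicate 2, 3 or 4 or P18 replicate 1, 2 or 4 (0.158) and EDNRB without NP15 replicate 2 or 4 or P18 replicate 1, 2 or 3 (0.0850). RAP1B (0.219) and ROBO4 (0.214) were each lost without most single arrays, and JUP against P15 (0.202) without 8 of them. Against P15, calls were also lost for ETV6 without P15 replicate 1 or 3 or P18 replicate 2, 3 or 4 (0.119), SOX18 without P15 replicate 1, 3 or 4 or P18 replicate 3 or 4 (0.206), VWF without P15 replicate 4 or P18 replicate 1 or 2 (0.156) and TM4SF1 without P15 replicate 1 or 4 or P18 replicate 2 or 3 (0.0831). CTNNB1, KRIT1, CLDN12, HEY2, EPAS1, ANGPT2 and ACKR1 kept each of their calls under every alternative that gave them a value.

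Markers of other cell types are given beside these values, with counts to be read against the 29.9% of all kept probes called in P18 against NP15. The 12 luteal steroidogenic cell genes measured had 2 higher and 4 lower members in P18 against NP15, and their summed level (linear signal in units of the array's 75th percentile) ranged over 577 to 709 for NP15, 452 to 572 for P15 and 413 to 516 for P18. STAR and HSD3B1 made up much of that sum and were saturated, HSD3B1 on all 4 NP15 arrays and STAR on all 8 day 15 arrays. Without these 2 genes the sums were 231 to 266, 197 to 243 and 163 to 213. The HSD3B1 probe lies in row 192, at the edge, and its P15 minus NP15 difference went from -1.47 to -0.84 with local position adjustment. Of 9 pericyte and smooth muscle genes, 2 were lower, ACTA2 (-1.88, limma adjusted p = 0.00137) and CALD1 (-0.67, 0.0047), with sums of 19.8 to 27.8, 20.5 to 27.2 and 14.9 to 20.7. Of 7 fibroblast genes, 3 were lower, the collagens COL1A1 (-1.43), COL1A2 (-1.35) and COL3A1 (-0.90), with sums of 73.7 to 86.1, 71.6 to 87.9 and 55.2 to 68.4. Of 12 leukocyte genes, 1 was higher (CD2, 1.03) and 1 lower (PTPRC, at least 1.78-fold, with 0 of 4 P18 arrays well above background), with sums of 3.30 to 6.51, 2.90 to 6.15 and 3.11 to 8.25. The CD2 call was lost on the arrays of those groups alone and without P18 replicate 3 or 4 (adjusted p up to 0.0660). For the bound of PTPRC, each P18 array counts at the level of its dimmest probe classed as well above background, or at the gene's own level where that is higher. The 9 endothelial markers measured, CDH5, PECAM1, ERG and PLVAP included, had 4 lower (CDH5, PECAM1, ERG and VWF) and 0 higher members. Their sums were 4.45 to 6.05, 5.07 to 5.55 and 3.87 to 4.76, so the NP15 and P18 ranges overlapped. ESAM, KDR and TEK, none of them called, were the brightest in that sum, with NP15 means of 0.96, 0.40 and -0.001. CDH5, PECAM1 and ERG, at -3.22, -3.26 and -3.18, and the dimmer PLVAP added little to it. Of 5 lymphatic endothelial genes 0 were called by limma against NP15 (0 at an unadjusted p under 0.05) and 0 against P15 (2 at an unadjusted p under 0.05). The sums were 7.77 to 13.3, 9.25 to 10.8 and 11.96 to 18.4, the P18 arrays above all P15 arrays. PDPN was the brightest in that sum, with means of 2.54, 2.67 and 2.90, and CCL21 ran from -5.09 to 1.80 on the P15 arrays. FLT4 was well above background on 0 of the P18 arrays. Of 4 platelet and red cell genes 1 was higher, the red cell gene ALAS2 (0.49, limma adjusted p = 0.0142). The sums were 0.487 to 0.574, 0.470 to 0.522 and 0.580 to 0.793, the P18 arrays above all others. ALAS2 was by far the brightest in that sum, with a P18 mean of -0.87 against -3.29 for ITGA2B. The platelet genes ITGA2B (-0.25, adjusted p = 0.104) and ITGB3 (-0.51, 0.0541) had the opposite sign, and HBA was at 0.59 (0.521). ITGB3 was well above background on 0 of the P18 arrays and HBA on 1. The part of cell composition in the changes of CDH5, PECAM1, ERG and PLVAP was not tested.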

How the data were processed

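Per the file headers, the scanner files the authors took spot intensity with Agilent Feature Extraction 9.5.1.1 (9.5 per the submitters' processing notes), and the processed signal is corrected for background and a spatial trend. The deposited value table holds log2 values: each column equals the log2 processed signal less 1 constant. Per the labels' protocols, the Cy3-labelled material came from 400 ng of total RNA by linear amplification.

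Here each log2 processed signal was taken relative to its array's 75th percentile. Control and marked spots were left out, and probes well above background on at least 3 of 4 arrays of a group were kept. The test was limma's (version 3.58.1, R 4.3.3), fitted over all 12 arrays and 12605 probes, two-sided, Benjamini-Hochberg threshold 0.05; exact permutation tests used SciPy 1.17.1. On simulated data for P18 against NP15 (12586 probes, 200 changed by 1 log2 unit) 56% were recovered with 8 false calls. The simulation had independent noise, no batch and far fewer changed probes than the 29.9% called in the data. It checks that the fit runs correctly and does not give the sensitivity or the false calls of the P18 results.

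Names came from the probes' accession (2514 probes), gene number (2020), symbol (1295), older symbol (292) or description (1019), through a table of ARS-UCD2.0 used for names only; 8068 probes matched none. The brightest kept probe stood for a gene of a list. From each list up to 4 called genes with the smallest p were named, and further genes where a count was 5 or fewer. Of the genes so picked, some are not reported here. The members and lists were chosen with earlier results of these data known. Alternatives changed the scaling, background correction, filter, marked spots, position, arrays, probe unit, weights and replicate block, or left out 1 array. Promoter sequences were not analysed here.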

Additional observations from a re-analysis of the deposited data

How the results depend on the processing

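CDH5, PECAM1 and ERG kept their direction and their call in both P18 comparisons under 25 alternatives, with limma adjusted p up to 0.00378 against NP15 and 0.00626 against P15, and none of the 4 genes was called in P15 against NP15 under any. PLVAP against P15 was called in all 24 alternatives that gave it a value (adjusted p 0.00145 to 0.0198); the filter that asks for signal well above background on all 12 arrays left it out. PLVAP against NP15 passed with median centring (1.35, adjusted p = 0.0343), no filter (1.18, 0.0496), array weights (1.30, 0.0482) and the replicate block (1.18, 0.0388), and over the 12 fits without 1 array it ran from 0.76 to 1.47 (adjusted p 0.0257 to 0.138). The count of 123 probes called in P15 against NP15 was 40 after local position adjustment, 65 on the arrays of those groups alone, 223 with array weights, 75 with the replicate block and 0 of 9469 by limma with outer rows left out (409 at an unadjusted p under 0.05), and 67 to 121 without 1 array. P18 against P15 gave 5506 of 15208 with no filter, in place of 3659. Called higher and lower were 1410 and 2363 in P18 against NP15 and 1698 and 1961 in P18 against P15; median centring, which shifts the median of all probes to 0.12 and 0.13, gave 2305 and 1523, and 2590 and 1341, and no filter gave 3178 and 2414, and 3483 and 2023. The causes were not tested. Replicate numbers were not shown to pair animals: same-numbered arrays correlated at -0.04 to 0.29 in their deviations, over 0.1 in 5 of 12, and 13 of 24 checks were best with their own number, where chance gives 6. The number is also the column on the slide, so same-numbered arrays share a position. The count of pairs of genes that differed was also computed with quantile normalization, normexp, local position adjustment and without 1 array, alternatives chosen after seeing the data; it was 0 in each, which a design of this size can hardly exceed, so it says nothing of stability. PLVAP is limited by its signal over background.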
